A study of Mus musculus with 6 samples.

Results

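Purinergic signalling was followed through 10 genes in mouse bone marrow: the ATP-gated channels P2rx1, P2rx4 and P2rx7, the nucleotide receptors P2ry1, P2ry2, P2ry6, P2ry12, P2ry13 and P2ry14, and the ectonucleotidase Entpd1. They were taken by symbol from a table of 14992 genes, and all 10 had enough reads to be among the 12806 genes tested. The set was chosen by a reading of this same comparison, with the counts of the inhibitor and vehicle libraries known, so the differences below describe the members and their p-values support nothing beyond that. Cells release ATP, ADP, UTP, UDP and UDP-glucose when they are stressed, damaged or activated. P2X receptors are cation channels opened by ATP, P2Y receptors are G protein-coupled receptors for the adenine and uracil nucleotides, and Entpd1 (CD39) ends the signal by cleaving ATP and ADP to AMP. In marrow these genes are best known from macrophages and monocytes (P2rx4, P2rx7, P2ry6), from megakaryocytes and platelets (P2rx1, P2ry1, P2ry12) and from blood progenitors (P2ry14).

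Messenger RNA was measured in bulk marrow of irradiated C57/BL6 mice that had received whole marrow of Dnmt3a knockout mice. The inhibitor group (libraries 1, 3 and 5) had been given a PI3K alpha and beta inhibitor at 75 mg/kg over 21 days, and the vehicle group (libraries 1, 2 and 3) had been given vehicle over the same 21 days. Donor marrow in both groups came from the knockout mice, so no group shows the genes in wild-type marrow, and the labels call the transplanted cells leukemic. The labels give no ages, do not say how the deletion was driven, what share of the harvested cells came from the donor, or whether each library is a separate mouse. The p-values therefore cover only the spread among 3 libraries per group. Libraries held 28198638 to 59384880 counts. Dnmt3a itself stood at 20.2, 15.4 and 15.5 CPM (counts scaled to a common library size) in inhibitors 1, 3 and 5 and at 24.9, 17.3 and 18.9 CPM in vehicles 1, 2 and 3, a gene-level count that cannot show the loss of single exons. Every marker listed below that was in the table had reads in at least 1 library. The same held for all 14992 genes, so it does not show that a cell type was present. Ly6g (neutrophils) and Ahsp (erythroid cells) were not analysed here. Vehicle 1 lay apart from vehicles 2 and 3: its summed macrophage markers were 3.15 times, its erythroid markers 3.17 times and its neutrophil markers 0.644 times the mean of the other vehicles, and the members' results are therefore also given without it.

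With the inhibitor P2rx7, P2ry6 and P2ry12 fell, to between 0.216 and 0.324 of the vehicle level. P2rx4 and P2ry13 also lay below every vehicle library without passing the test over all 6 libraries. P2rx1 was slightly above every vehicle library, and P2ry1, P2ry2, P2ry14 and Entpd1 overlapped between the groups. In edgeR's quasi-likelihood test, with Benjamini-Hochberg adjustment over all tested genes and a threshold of 0.05, 3 of the 10 members were called lower, where 1.19% of all tested genes were, and 0 higher, where 0.633% were. Taking p under 0.05 without adjustment, 5 members were lower (11.9% of all genes) and 0 higher (9.68%), and DESeq2 called 5 lower (7.23%) and 0 higher (4.9%). In 5 members every inhibitor library lay below every vehicle library, which held for 16.2% of all genes, and in 1 member every inhibitor library lay above, which held for 14.4%. The median log2 fold change was -0.81 over the members and 0.000931 over all tested genes.

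The count of called members depended on single libraries. Without vehicle 1 edgeR called 5 lower (4.89% of 12946 genes) and 0 higher (3.1%), with P2rx4 and P2ry13 joining P2rx7, P2ry6 and P2ry12. Without vehicle 2 it called 3 lower and 0 higher, beside 84 lower and 7 higher of 13016 genes. Leaving out vehicle 3 or any 1 of the inhibitor libraries gave 0 called members and 0 called genes in the whole table. At p under 0.05 without adjustment, 5 or 6 members were then lower, beside 985 to 1428 of 12973 to 13053 genes. Higher at that p were 1 member without inhibitor 1 and 0 members in the others, beside 847 to 1040 genes.

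**Figure D1:**
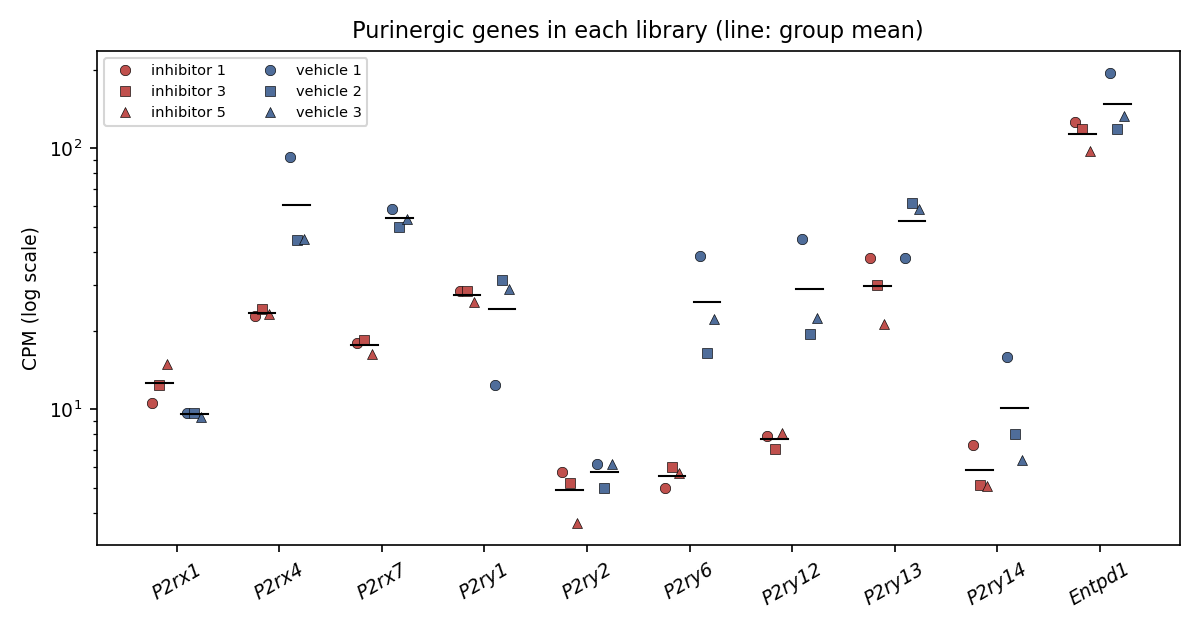
CPM on a log axis for the 10 genes in each library, inhibitor left (red) and vehicle right (blue) for every gene, with a line at the group mean. P2rx7 shows tight groups at 16.2 to 18.5 CPM with inhibitor against 50.1 to 58.7 CPM with vehicle, while P2rx4, P2ry6 and P2ry12 each have vehicle 1 well above the other vehicles.

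Among the ATP-gated channels, P2rx7 separated the groups most cleanly. P2rx7 needs high ATP to open and is the classical trigger of the NLRP3 inflammasome in macrophages. It stood at 18.0, 18.5 and 16.2 CPM in inhibitors 1, 3 and 5, against 58.7, 50.1 and 53.6 CPM in vehicles 1, 2 and 3. The groups lay far apart, and vehicle 1 was at 1.13 times the mean of the other vehicles. P2rx7 fell by 1.63 ± 0.13 on the log2 scale (error is SE, with 3 libraries in each group; edgeR adjusted p = 0.0114), the third smallest p-value in the whole table. Without vehicle 1 it fell by 1.57 ± 0.12.

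P2rx4, an ATP-gated channel found on lysosomes and the surface of macrophages, stood at 22.8, 24.3 and 23.2 CPM in inhibitors 1, 3 and 5, against 92.6, 44.4 and 44.98 CPM in vehicles 1, 2 and 3. The coefficient of variation was 3.29% among the inhibitor libraries and 45.6% among the vehicle libraries, where vehicle 1 had 2.07 times the level of the others. The log2 fold change was -1.37 ± 0.29 (edgeR adjusted p = 0.0619), and without vehicle 1 it was smaller but past the threshold, at -0.93 ± 0.11 (adjusted p = 0.00502). P2rx1, the fast channel of platelets, stood at 10.5, 12.35 and 14.8 CPM in inhibitors 1, 3 and 5, against 9.69, 9.64 and 9.37 CPM in vehicles 1, 2 and 3. The vehicle libraries were nearly level, and the inhibitor libraries all lay above them, by 0.40 ± 0.17 on the log2 scale (edgeR adjusted p = 0.244) and by 0.40 ± 0.17 without vehicle 1 as well. In transcripts per 1e6 (TPM), which carry no TMM scaling and place the median of all tested genes at -0.38 on the log2 scale, P2rx1 had means of 8.02 TPM with inhibitor and 7.92 TPM with vehicle.

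Of the receptors that couple to Gq, P2ry6 passed the test and P2ry1 and P2ry2 did not. P2ry6, a receptor for UDP that drives phagocytosis in microglia, stood at 4.98, 5.99 and 5.72 CPM in inhibitors 1, 3 and 5, against 38.7, 16.4 and 22.2 CPM in vehicles 1, 2 and 3. Every vehicle library was above every inhibitor library, and vehicle 1 was at 2.00 times the mean of vehicles 2 and 3. P2ry6 fell by 2.21 ± 0.32 on the log2 scale (edgeR adjusted p = 0.0342), the deepest fall of the 10 genes, and by 1.80 ± 0.18 without vehicle 1. P2ry2, which binds ATP and UTP and guides neutrophils, stood at 5.76, 5.21 and 3.68 CPM in inhibitors 1, 3 and 5, against 6.16, 4.97 and 6.16 CPM in vehicles 1, 2 and 3. Its groups overlapped, and its fold change on the log2 scale was -0.24 ± 0.24 (adjusted p = 0.583), and -0.20 ± 0.23 without vehicle 1. P2ry1, the ADP receptor that starts platelet shape change, stood at 28.2, 28.5 and 25.7 CPM in inhibitors 1, 3 and 5, against 12.3, 31.35 and 28.9 CPM in vehicles 1, 2 and 3. Vehicle 1 was the low library here, at 0.410 times the mean of the other vehicles, and the log2 fold change of 0.18 ± 0.32 over all 6 libraries turned to -0.13 ± 0.12 without it. In TPM, with the shift of -0.38 just given, the log2 ratio of the P2ry1 group means was -0.20.

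The receptors that couple to Gi are P2ry12, P2ry13 and P2ry14. P2ry12, an ADP receptor that amplifies platelet aggregation and is also a marker of microglia, stood at 7.90, 7.03 and 8.10 CPM in inhibitors 1, 3 and 5, against 45.04, 19.3 and 22.4 CPM in vehicles 1, 2 and 3. All inhibitor libraries were low and close together, and vehicle 1 was the highest library, at 2.16 times the mean of the other vehicles. P2ry12 fell by 1.91 ± 0.33 on the log2 scale (edgeR adjusted p = 0.0428), and by 1.44 ± 0.14 without vehicle 1. P2ry13, a second ADP receptor of myeloid cells, stood at 37.9, 30.03 and 21.15 CPM in inhibitors 1, 3 and 5, against 38.1, 61.8 and 58.3 CPM in vehicles 1, 2 and 3. Inhibitor 1 and vehicle 1 nearly met, so the groups were only just apart. The log2 fold change was -0.83 ± 0.26 (adjusted p = 0.130), and -1.02 ± 0.22 without vehicle 1 (adjusted p = 0.0313). P2ry14, a receptor for UDP-glucose on blood stem and progenitor cells, stood at 7.29, 5.14 and 5.07 CPM in inhibitors 1, 3 and 5, against 15.8, 8.07 and 6.38 CPM in vehicles 1, 2 and 3. Its groups overlapped through vehicle 3, and the difference on the log2 scale was -0.79 ± 0.36 (adjusted p = 0.258), and -0.31 ± 0.22 without vehicle 1.

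Entpd1 had the highest level per length of the 10 genes in both groups. It stood at 125.5, 118.3 and 97.4 CPM in inhibitors 1, 3 and 5, against 193.6, 118.2 and 132.3 CPM in vehicles 1, 2 and 3. Vehicle 2 lay within the inhibitor range, and vehicle 1 was the high library. The log2 fold change was -0.38 ± 0.21 (edgeR adjusted p = 0.323), and -0.14 ± 0.14 without vehicle 1. In the authors' deposited table, made with a test that is not named in the sources at hand, 5 of the 10 genes are lower at an adjusted p under 0.05 and 0 higher. The log2 fold changes of the authors' deposited table run from -2.20 for P2ry6 to 0.40 for P2rx1, and P2ry13 passes there with an adjusted p of 0.0497.

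**Figure D2:**
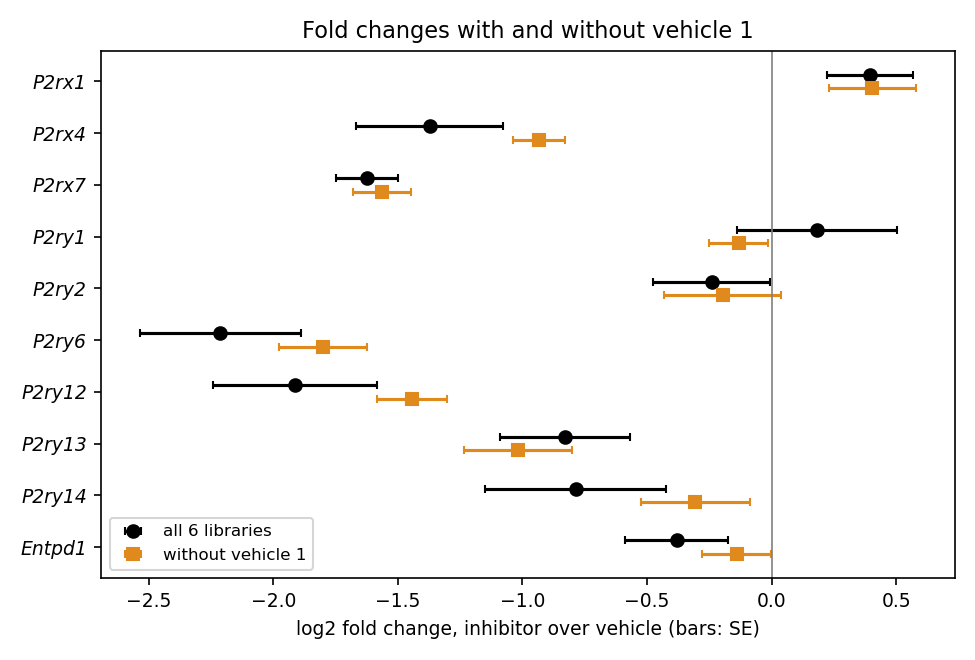
Log2 fold change of inhibitor over vehicle for the 10 genes (points, with SE as bars) over all 6 libraries in black and without vehicle 1 in orange. P2rx7 hardly moved between the fits, at -1.63 and -1.57, whereas P2rx4, P2ry6, P2ry12 and P2ry14 came closer to 0 and P2ry1 changed sign.

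Levels between genes were compared per length, as CPM per kilobase of the deposited gene length (RPKM). In inhibitor libraries Entpd1 led with 26.0 ± 3.34 RPKM (SD, n = 3), followed by P2ry13 with 11.75 ± 3.31 and P2rx4 with 11.7 ± 0.38, which overlapped. P2ry1 came next with 7.04 ± 0.39 and P2rx1 with 5.15 ± 0.88, each apart from its neighbours in the order. P2ry12, P2rx7, P2ry6 and P2ry14 followed, at means of 3.28, 3.18, 2.90 and 2.27 RPKM, each overlapping the next. P2ry2 was last with 1.59 ± 0.35 RPKM. In vehicle libraries Entpd1 had 33.8 ± 9.16 RPKM and P2rx4 30.4 ± 13.9, followed by P2ry13, P2ry6, P2ry12 and P2rx7 at means of 20.9, 13.45, 12.4 and 9.81 RPKM, and neighbours in this run of 6 overlapped. P2ry1, P2ry14 and P2rx1 lay lower, at means of 6.20, 3.92 and 3.92 RPKM, and P2ry2 was last again with 1.88 ± 0.22. Thus P2ry6, P2ry12 and P2rx7 stood above P2ry1 and P2rx1 in the vehicle order and below both in the inhibitor order.

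Of the 10 genes, 7 lie in 3 short stretches of the genome (GRCm38, GENCODE release M21). P2rx7 (chromosome 5, 122643911 to 122691432) and P2rx4 (chromosome 5, 122707544 to 122729738) are 16112 bases apart on the plus strand. P2ry6 (chromosome 7, 100937630 to 100974649) and P2ry2 (chromosome 7, 100996568 to 101012866) are 21919 bases apart on the minus strand. P2ry14 (chromosome 3, 59113855 to 59153618), P2ry13 (59207892 to 59210882) and P2ry12 (59216272 to 59262871) lie on the minus strand within Med12l, which runs on the plus strand. Because the libraries do not mark strand, reads of P2ry12 and Med12l cannot be told apart in the 9 exon bases they share, 0.354% of the exon bases of P2ry12. Med12l had a log2 fold change of 0.29 ± 0.22 with means of 5.71 CPM with inhibitor and 4.66 CPM with vehicle. P2ry1 (chromosome 3, 61002795 to 61008982) shares 23.1% of its exon bases with an antisense gene, Gm37035, which was not analysed here. P2rx1 is on chromosome 11 (72999103 to 73015200) and Entpd1 on chromosome 19 (40612366 to 40741602).

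Of 18 tested protein-coding genes within 100000 bases of a member, edgeR called 1 lower and 0 higher, beside 1.19% and 0.633% of all tested genes, a number too small to read anything from. The called gene was Camkk1, a calcium-dependent kinase kinase 3808 bases from P2rx1, which had means of 3.25 CPM with inhibitor and 8.57 CPM with vehicle and fell by 1.396 ± 0.226 on the log2 scale (adjusted p = 0.0403), while P2rx1 itself had a positive value. For Camkk2, 1432 bases from P2rx4, the log2 fold change was 0.27 ± 0.15 (adjusted p = 0.344). Within the pair on chromosome 7 the log2 fold changes were -2.21 for P2ry6 and -0.24 for P2ry2, and the difference between the genes was not tested.

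**Figure D3:**
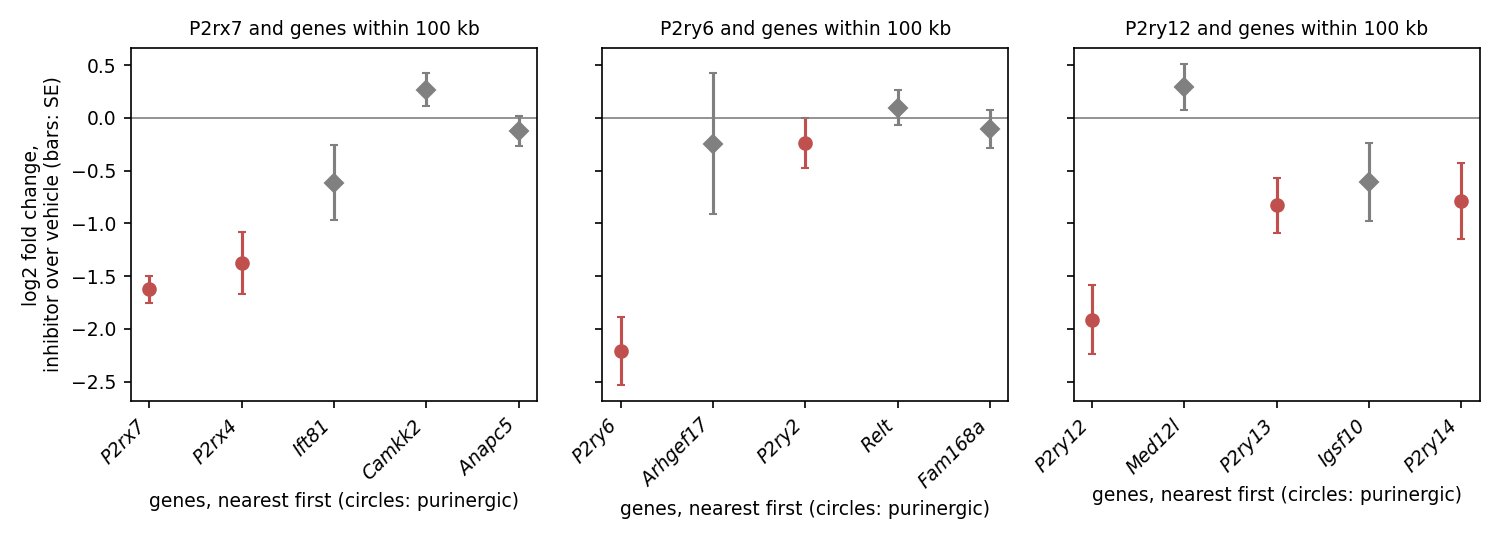
Log2 fold change of inhibitor over vehicle (SE as bars) for P2rx7, P2ry6 and P2ry12 and the tested protein-coding genes within 100 kb of each, ordered from the nearest; circles are purinergic genes and diamonds other genes. The other genes lie between -0.61 and 0.29, above the leading gene of each stretch.

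Promoter windows were read for the neighbours P2rx7 and P2rx4 and for P2ry12 and P2ry13, the pairs whose members were all lower in every inhibitor library. Each runs from 250 bases before to 50 bases after a RefSeq start site (build GRCm38.p6) and is printed from 5′ to 3′ of the gene, P2rx7 from chr5:122643677-122643976 (plus strand), P2rx4 from chr5:122707294-122707593 (plus strand), P2ry12 from chr3:59262936-59263235 (minus strand) and P2ry13 from chr3:59210833-59211132 (minus strand). Capitals mark matches, on either strand, to 7 motifs. They were GAGGAAG for ETS factors such as PU.1, TGANTCA for AP-1, GTAAACA for FOXO factors, AGATAA for GATA factors, CACGTG for MITF and TFE factors, TTGCNNAA for C/EBP and TGTGGT for RUNX. No 2 matches overlap in the windows shown.
P2rx7: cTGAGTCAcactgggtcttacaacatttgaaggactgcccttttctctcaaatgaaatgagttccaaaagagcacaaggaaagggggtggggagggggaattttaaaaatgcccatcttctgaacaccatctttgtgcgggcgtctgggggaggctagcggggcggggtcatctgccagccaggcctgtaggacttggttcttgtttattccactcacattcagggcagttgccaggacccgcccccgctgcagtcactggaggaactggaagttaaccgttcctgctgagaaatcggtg
P2rx4: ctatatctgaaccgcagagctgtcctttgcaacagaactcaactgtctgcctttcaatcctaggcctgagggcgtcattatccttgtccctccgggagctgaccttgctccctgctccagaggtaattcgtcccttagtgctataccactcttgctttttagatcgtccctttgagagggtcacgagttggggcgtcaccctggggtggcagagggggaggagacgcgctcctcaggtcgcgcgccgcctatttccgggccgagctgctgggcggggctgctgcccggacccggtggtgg
P2ry12: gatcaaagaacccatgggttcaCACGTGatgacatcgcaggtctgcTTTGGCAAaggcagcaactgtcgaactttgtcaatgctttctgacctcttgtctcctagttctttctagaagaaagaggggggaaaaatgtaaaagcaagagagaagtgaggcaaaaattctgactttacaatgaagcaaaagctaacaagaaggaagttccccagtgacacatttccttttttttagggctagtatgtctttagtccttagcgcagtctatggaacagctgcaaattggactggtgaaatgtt
P2ry13: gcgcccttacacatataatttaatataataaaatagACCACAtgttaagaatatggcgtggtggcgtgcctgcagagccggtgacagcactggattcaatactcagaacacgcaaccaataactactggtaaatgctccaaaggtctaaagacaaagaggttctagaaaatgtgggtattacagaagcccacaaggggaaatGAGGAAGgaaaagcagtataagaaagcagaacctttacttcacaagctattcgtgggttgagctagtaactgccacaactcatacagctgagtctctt

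The P2rx7 window, 1 of 2 listed for this gene, holds the AP-1 letters at its far end, 249 bases before the start site, and the P2rx4 window holds none of the motifs. The P2ry12 window holds CACGTG and TTGCNNAA, at 228 and 204 bases before the start site, and the P2ry13 window holds TGTGGT and GAGGAAG, at 214 and 48 bases before it. Of the 32851 windows of this length in the table, 7.81% hold TGANTCA, 7.15% CACGTG, 10.8% TTGCNNAA, 16.8% TGTGGT, 13.6% GAGGAAG, 11.2% AGATAA and 3.65% GTAAACA. Among 9 members with a window (all but P2ry6), 0 held the FOXO letters, and no other motif was in more than 2. These matches describe the letters only.

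The members differed in how they followed the libraries. Profiles of log2(CPM + 1), each centred on its mean over the 6 libraries, were compared by the root mean square of their differences, where 0 means the same profile. The closest pair was P2ry6 and P2ry12, at 0.182, followed by P2ry2 and Entpd1 at 0.189 and P2rx4 and P2ry12 at 0.241. The most distant pair was P2ry1 and P2ry6, at 1.34. Among 9482 other genes whose mean reached 5 CPM, those nearest to P2rx7 were Nxpe5 (0.117) and Dse, a dermatan sulfate epimerase (0.129). Nearest to P2ry6 were Cbr2, a carbonyl reductase (0.107), and Rgl1, a Ral guanine exchange factor (0.133). Nearest to P2ry12 were Rgl1 (0.0726) and the macrophage marker Cd68 (0.102). Nearest to P2rx4 were Enpp1 (0.0759), itself an enzyme that splits extracellular ATP, and Tmem176a (0.0879). For P2ry13 they were Naaa (0.135) and Vps13c (0.138), for P2ry14 Twf1 (0.102) and Apol11b (0.105), and for Entpd1 the sterol transporter gene Abcg1 (0.0626) and the proton pump gene Atp6v0a1 (0.0646). P2rx1 was nearest to Zfp692 (0.0491) and Ezh2 (0.0556), P2ry1 to Chdh (0.0560) and Wdr77 (0.0739), and P2ry2 to Sidt2 (0.0367) and Lfng (0.0414). A gene that varies little has near neighbours by the construction of this measure. All distances are over 6 libraries, which share the treatment groups and library sizes.

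Markers of several cell types moved with the members. Beside the called counts below, edgeR called 1.19% of all tested genes lower and 0.633% higher, and 4.89% and 3.1% without vehicle 1. Summed over 18 macrophage markers, levels were 1121 to 1456 CPM with inhibitor against 2999 to 9981 CPM with vehicle, with 6 of 18 called lower and 0 higher. The median log2 fold change of these markers was -2.58, and without vehicle 1 it was -1.74, with 16 of 18 called lower. Over 10 monocyte markers they were 1887 to 2590 CPM with inhibitor against 2947 to 3469 CPM with vehicle, with 4 of 10 called lower (8 without vehicle 1) and 0 higher. Among the monocyte markers 9 of 10 had a lower value. Ly6c2 had a higher one, at 0.40 ± 0.26 on the log2 scale, with overlapping groups. P2rx7, P2ry6 and P2ry12 lay in the same direction as both sums, and P2ry6 and P2ry12 also shared the high vehicle 1 of the macrophage sum. P2rx7 and the macrophage sum differed there, since vehicle 1 was at 1.13 times the other vehicles for P2rx7 and at 3.15 times for the sum. Single macrophage markers spread widely in this ratio, from 0.605 for Spic and 0.846 for Maf, both called lower, to 5.41 for Cd163. Except for Spic and Maf, all of these macrophage markers were above 1. Slc40a1, at 1.08, had a log2 fold change of -0.02 ± 0.15. The monocyte sum was at 0.852 in this ratio. Over 14 megakaryocyte and platelet markers the sums ran from 103 to 424 CPM with inhibitor and from 122 to 383 CPM with vehicle, so they overlapped, with 0 called. Of these 14, 12 had a higher value, and the list's median log2 fold change was 0.72 (1.42 without vehicle 1). Pf4 and Clec1b had lower values, and both were highest in vehicle 1, at 120.5 and 53.6 CPM. The platelet marker sums were 103, 246 and 424 CPM in inhibitors 1, 3 and 5. P2rx1 stood in the same order there, at 10.5, 12.35 and 14.8 CPM, while P2ry12 was at 7.90, 7.03 and 8.10 CPM and P2ry1 at 28.2, 28.5 and 25.7 CPM. In vehicles 1, 2 and 3 the platelet marker sums were 383, 136 and 122 CPM, but P2rx1 was nearly level, at 9.69, 9.64 and 9.37 CPM. P2ry12 was at 45.04, 19.3 and 22.4 CPM in those libraries and P2ry1 at 12.3, 31.35 and 28.9 CPM. Neutrophil markers ran the other way, with 15 markers summing to 107830 to 132010 CPM with inhibitor against 43297 to 70285 CPM with vehicle, with 2 of 15 called higher (6 without vehicle 1), as did 10 stem and progenitor markers, at 245 to 258 CPM with inhibitor against 178 to 203 CPM with vehicle, with 2 of 10 called higher (3 without vehicle 1). Sums of 10 dendritic cell markers were also lower, at 237 to 312 CPM with inhibitor against 319 to 390 CPM with vehicle. Of these markers 0 were called lower and 1 higher. Sums of 12 T and NK cell markers overlapped, at 141 to 166 CPM with inhibitor and 163 to 225 CPM with vehicle. Within this list 11 of 12 markers had a lower value, with a median log2 fold change of -0.99 over the list. In the test 1 was called lower (6 without vehicle 1) and 0 higher. Nkg7 went the other way, with means of 74.5 CPM with inhibitor and 49.05 CPM with vehicle. B-cell sums and the pooled eosinophil, basophil and mast cell sums were higher in every inhibitor library, and erythroid and stromal sums overlapped. In the pooled list 9 of 12 had a higher value, and the 3 called were the eosinophil genes Epx, Prg2 and Prg3. The basophil and mast cell genes Mcpt8, Prss34, Cpa3 and Ms4a2 overlapped. Fcer1a was higher and Gata2 lower in every inhibitor library. The part of any of these markers in the changes of the members was not tested, and in bulk marrow fewer cells of a type and less RNA per cell cannot be told apart.

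**Figure D4:**
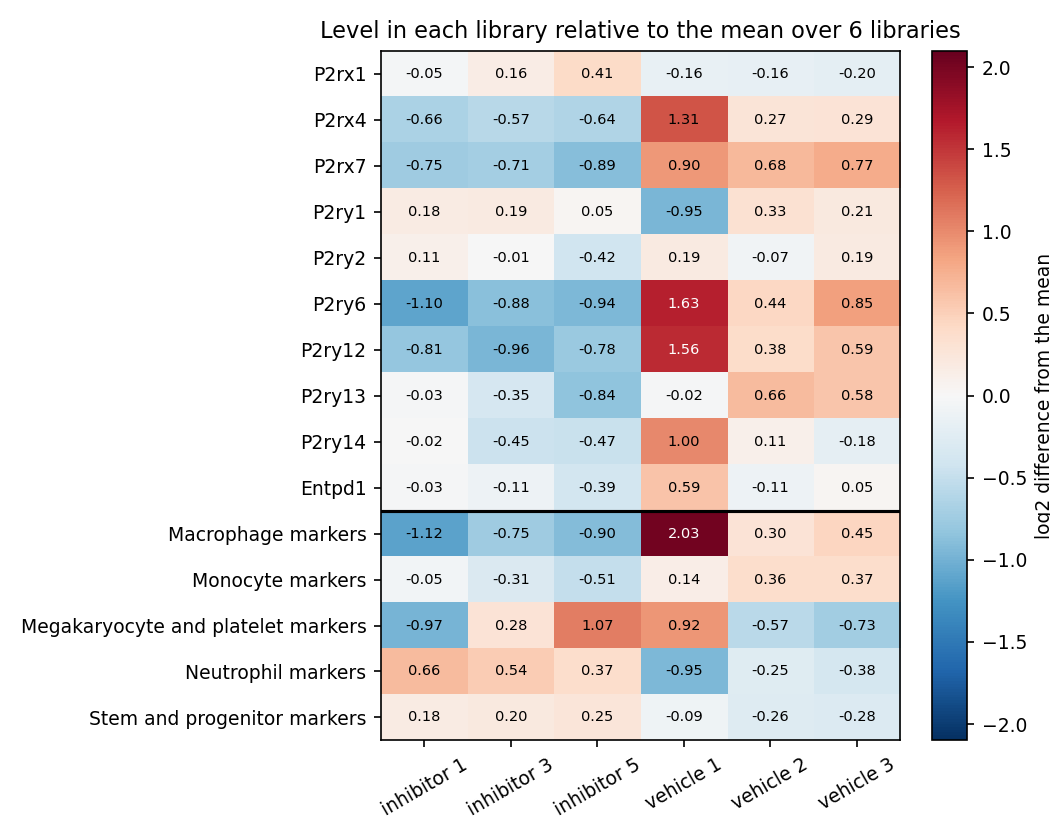
Level of each purinergic gene (log2(CPM + 1)) and of the summed markers of 5 cell types (log2 CPM) in each library, as the difference from the row's mean over the 6 libraries, with inhibitor libraries left and vehicle libraries right. P2rx7 is even within groups, P2ry6 and P2ry12 peak in vehicle 1 like the macrophage markers, and P2ry1 is lowest there.

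Few other genes of the nucleotide pathway passed the test. Of 68 further genes for receptors, enzymes, channels, transporters and effectors, 63 were in the table and 58 were tested. Among the 58, edgeR called 2 lower and 0 higher (1.19% and 0.633% of all tested genes). Without vehicle 1 it called 7 lower and 4 higher (4.89% and 3.1% of all tested genes). With p under 0.05 and no adjustment, 10 were lower (11.9% of all tested genes) and 7 higher (9.68%). DESeq2 called 7 lower (7.23%) and 7 higher (4.9%). The median log2 fold change of the 58 genes was -0.09. The 2 called genes were Cd38 and Lrrc8b. Cd38, a surface enzyme that consumes NAD, had means of 31.0 CPM with inhibitor and 124.6 CPM with vehicle and fell by 2.01 ± 0.32 on the log2 scale (edgeR adjusted p = 0.0403). Lrrc8b, a subunit of volume-regulated anion channels, had means of 10.6 CPM with inhibitor and 20.3 CPM with vehicle and fell by 0.94 ± 0.16 (adjusted p = 0.0420). Vehicle 1 had 2.16 times the Cd38 level and 1.18 times the Lrrc8b level of the other vehicles, and without it Cd38 fell by 1.53 and Lrrc8b by 0.85. Neither call held with vehicle 3 or any 1 inhibitor library left out, where the adjusted p ran from 0.0854 to 0.168 for Cd38 and from 0.104 to 0.178 for Lrrc8b, and that of Lrrc8b also missed without vehicle 2 (0.0614).

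Among the other receptors, P2rx3, an ATP channel best known from sensory neurons, had means of 2.70 CPM with inhibitor and 0.894 CPM with vehicle, a log2 fold change of 1.59 ± 0.50 (edgeR adjusted p = 0.131) that was 0.96 without inhibitor 5. P2rx2 and P2rx5 were too low to test, and P2rx6, P2ry4, P2ry10b and Adora1 were not analysed here. P2ry10, a lymphoid receptor for a lysophospholipid grouped with the P2Y family by name, had 29.6 CPM with inhibitor and 23.2 CPM with vehicle, with a log2 fold change of 0.36 ± 0.51 over all libraries and 1.24 without vehicle 1, where it passed (adjusted p = 0.0249). Summed over 12 B-cell markers, levels were 221 to 626 CPM with inhibitor against 62.998 to 148 CPM with vehicle. Vehicle 1 had the lowest B-cell sum, 62.998 CPM, and the highest P2ry10 level, 44.3 CPM, of the 6 libraries. The part of B-cell markers in the P2ry10 value was not tested. The adenosine receptors Adora2a, Adora2b and Adora3 had log2 fold changes of -0.26, -0.50 and -0.88, none past the threshold over all 6 libraries. Without vehicle 1 Adora2b passed, at -0.66 ± 0.16 (edgeR adjusted p = 0.0461), and with limma voom quality weights Adora2b and Adora3 passed (adjusted p = 0.00857 and 0.00902).

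Of the enzymes that act after or beside Entpd1, Bst1, a relative of Cd38, had a value of 0.12 ± 0.18 on the log2 scale, and Acpp, an acid phosphatase that can form adenosine from AMP, had 0.78 ± 0.15 (edgeR adjusted p = 0.0531, and 0.0154 without vehicle 1). Acpp stood at means of 105.2 CPM with inhibitor and 61.4 CPM with vehicle, and the groups did not overlap. Nt5e (CD73), the main enzyme that turns AMP into adenosine, named after its values were seen, had means of 41.5 CPM with inhibitor and 29.4 CPM with vehicle, a log2 fold change of 0.49 ± 0.26 (adjusted p = 0.304), and 0.24 ± 0.11 without vehicle 1. Enpp1, the gene closest in profile to P2rx4, had 8.05 CPM with inhibitor and 23.5 CPM with vehicle, a log2 fold change of -1.55 ± 0.36 (adjusted p = 0.0700). Vehicle 1 had 2.39 times the Enpp1 level of the other vehicles, and without it the value was -0.999 ± 0.131 and past the threshold (adjusted p = 0.00780). Of the NTPDases inside the cell, Entpd5, Entpd6 and Entpd7 had log2 fold changes of 0.52, -0.34 and -0.22, with 0 of 3 called.

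Adenosine handling gave 0 calls among 8 genes over all 6 libraries, while DESeq2 called 2 higher and 1 lower. For this list and those below, edgeR called 1.19% of all tested genes lower and 0.633% higher. The shares were 4.89% and 3.1% without vehicle 1, and 7.23% and 4.9% with DESeq2. Adk, Pnp and the nucleoside transporter Slc29a1 had log2 fold changes of 0.03, 0.29 and -0.67, and Slc29a1, which vehicle 1 held at 2.05 times the other vehicles, was at -0.24 without it. Of genes named after their values were seen, Dpp4, which anchors adenosine deaminase at the surface in human cells, had 1.26 ± 0.28 and Ada, that deaminase, 0.63 ± 0.15 (DESeq2 adjusted p = 0.00117 and 0.00772). The transporter gene Slc29a3 had -0.68 ± 0.15, and -0.79 ± 0.12 without vehicle 1, where it was called lower (edgeR adjusted p = 0.0137). For nucleotide release, Slc17a9, the vesicular nucleotide transporter, had means of 43.1 CPM with inhibitor and 21.9 CPM with vehicle, a log2 fold change of 0.98 ± 0.21 (edgeR adjusted p = 0.0615) that passed without vehicle 1, at 0.80 ± 0.16 (adjusted p = 0.0240). The anion channel subunits Lrrc8c and Lrrc8d had -0.57 and -0.29. Downstream of P2rx7, 0 of 10 genes were called over all 6 libraries, and 1 was called lower without vehicle 1 and 1 by DESeq2, Il18 in both. Il1b, Gsdmd and the shedding protease Adam10 had log2 fold changes of -0.28, 0.20 and -0.37, and Nlrp3 and Il18, named after their values were seen, had -0.56 and -1.93 (adjusted p = 0.156 and 0.0583). Il18 was at -1.47 without vehicle 1 (adjusted p = 0.0223). Among 17 G proteins and effectors 0 were called over all 6 libraries, and Gnai2, Gnai3 and Rgs2 had log2 fold changes of 0.12, 0.37 and 0.44. DESeq2 called 1 higher and 1 lower, as did edgeR without vehicle 1. In both these were Rgs18 and Plcb1, named after their values were seen, at 0.95 and -0.78 over all 6 libraries.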

How the data were processed

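Messenger RNA of 6 bulk marrow samples was measured by RNA-seq. STAR and featureCounts are the tools, and mm10 the build, that the submitters' processing notes name, without versions. The kit (SMART-Seq v4 with Nextera XT, per the labels' protocols) does not mark strand. The authors deposited raw read counts for 14992 genes, with gene length and their own comparison as a log2 fold change and an adjusted p-value.

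Counts were tested with edgeR 4.0.16 (R 4.3.3) on group alone: filterByExpr, TMM scaling, glmQLFit and glmQLFTest, Benjamini-Hochberg adjustment over 12806 genes, threshold 0.05. The biological coefficient of variation was 25.2%. The SE was taken as log2 fold change over the root of F. CPM and RPKM use TMM library sizes. No libraries were duplicates (lowest chi-square per degree of freedom between a pair 31.1). The steps were tested on simulated data. Alternatives were DESeq2 1.42.0, limma 3.58.1 voom without and with quality weights, other scalings and filters, an adjusted p under 0.10, a replicate block, and leaving out each library in turn.

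Members and lists were chosen with earlier results of these data known. Genes outside the 10 were named by rule, apart from those chosen with values seen. The rule took called genes and the 3 with the highest RPKM in each pathway list. It also took the 2 nearest profiles to each member (pseudocount 1, mean of at least 5 CPM). Chosen with values seen were the genes said to be so, and the neighbours Camkk1, Camkk2 and Med12l. The single markers set beside the marker sums, such as Spic, Maf and Cd163, were also chosen with values seen.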

Additional observations from a re-analysis of the deposited data

How the results depend on the processing

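Over the alternatives, 115 of the members' log2 fold changes kept their direction and side of the threshold, 17 lost the call, 6 gained it and 2 turned sign. For the other named pathway genes these counts were 294, 13, 20 and 6. DESeq2 called 5 members lower and 926 lower and 628 higher of all genes, with 7 lower and 7 higher among the pathway genes. With limma voom 1 member was lower, with 55 lower and 30 higher of all genes and 0 pathway genes. With voom quality weights, where vehicle 1 had a weight of 0.161, 5 members were lower, with 1483 lower and 1374 higher of all genes and 15 lower and 6 higher in the pathway. At an adjusted p under 0.10, 4 members were lower, with 634 lower and 422 higher of all genes. DESeq2 size factors and upper-quartile scaling each called 1 pathway gene higher. The adjusted p over the alternatives ran from 4.123e-26 to 0.122 for P2rx7, from 6.692e-09 to 0.148 for P2ry6 and from 1.767e-06 to 0.177 for P2ry12.

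Only numbers 1 and 3 are shared by the groups, and same-numbered libraries deviated apart (correlations of -0.514 and -0.103), so pairing could not be established. With the replicate block 0 members, 7 lower and 0 higher of all genes and 0 pathway genes were called, the members' smallest adjusted p being 0.0543 (P2ry6), and Adk turned to -0.0757. In this fit vehicle 2 and inhibitor 5 stand alone under their numbers. The group difference therefore rests on the libraries numbered 1 and 3, and the fit cannot show whether libraries were paired.

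Leaving out 1 library gave 0 to 5 lower members, 0 to 633 lower and 0 to 401 higher of all genes, and 0 to 7 lower and 0 to 4 higher pathway genes, the upper end always without vehicle 1. Across these fits the log2 fold change of P2ry1 ran from -0.13 to 0.41, of Bst1 from -0.0851 to 0.24, of Adk from -0.11 to 0.26 and of Il1b from -0.89 to 0.0142. With quality weights P2ry1 was -0.0412. Why these values moved was not tested. By mean TPM over all 6 libraries 2 members, P2rx7 and P2ry1, changed places in the order of levels. They had 12.39 and 11.74 TPM against 6.499 and 6.624 RPKM. Within single groups, P2rx4 stood above P2ry13 in TPM with inhibitor (18.23 and 18.16), and P2rx1 above P2ry14 with vehicle (7.92 and 7.88). P2rx3 rests on 22 to 163 reads per library, and was at 0.72 with the replicate block.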
